A study of Mus musculus with 10 samples.

Results

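The broad H3K27me3 domains of newborn mouse retina are long stretches of chromatin marked by trimethylation of lysine 27 on histone H3. They were chosen by the control H3K27me3 peak list on chromosomes 1 to 19: peaks at most 1000 bp apart were joined, and joined regions spanning at least 10000 bp were kept. This gave 1677 domains of 31863 joined control regions, or 5.26% of them. Their number, span and control coverage are the values that chose them and are given as a description. The study set wild type retina beside retina with a conditional knockout (cKO) of Casz1, a zinc finger transcription factor of retinal progenitors, both of strain C57BL/6. ChIP-seq for H3K27me3 and for H3K27ac, the acetylation of the same lysine found at active promoters and enhancers, used microdissected retina at P0, with 1 wild type (control) library and 1 from Casz1 cKO for each mark. For ChIP-seq, cKO tissue was picked by its fluorescence from the peripheral retina, so the groups may also differ in the part of the eye they came from. The sources used here do not name the promoter that drove Cre in it. ATAC-seq, where Tn5 transposase marks accessible sites, gave the open chromatin at postnatal day 2 in 2 control and 2 Casz1 cKO libraries. For these, explants took up a plasmid for GFP or for GFP with Cre, and 50000 live GFP+ cells per library were sorted after 2 days ex vivo.

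H3K27me3 is laid down by Polycomb repressive complex 2 and is read by Polycomb repressive complex 1. Complexes of this family are recruited to CpG-rich promoters that are not transcribed, and the mark then spreads along the chromatin, most widely over clusters of developmental transcription factor genes such as the Hox genes. In the retina, one progenitor pool produces neurons and glia in a set order, and genes that define other tissues or other retinal cell types are held silent by this mark in many cells. The retina is a mixture of cell types, so 2 marks or an open site in the same domain may come from different cells, and these cases cannot be told apart here.

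The 250 bases upstream of annotated starts are shown for 4 genes with CG-rich starts in domains and 1 outside. They are picked examples: other starts in domains held few CG, such as 1, 4 and 7 at 3 starts of Nfix, 5 at 1 of Pax2 and 9 at Nkx2-1. Sequences and coordinates are from RefSeq on GRCm38.p6, the assembly that mm10 names, and each reads 5′ to 3′ on the strand of its gene. Capitals mark every CG dinucleotide, a motif that reads the same on both strands. Hoxa5, a patterning gene of the trunk and limbs, was read from chr6:52204588-52204837 on the minus strand and holds 28 CG. Sox1, an early neural transcription factor, was read from chr8:12395269-12395518 on the plus strand and holds 29. Zic1, a zinc finger regulator of neural and eye progenitors, was read from chr9:91365769-91366018 on the minus strand and holds 27. Pax6, a paired homeobox gene needed for the eye, was read at the annotated start inside its domain from chr2:105668646-105668895 on the plus strand and holds 15. Crx, a homeobox regulator of photoreceptors whose start lay outside H3K27me3 in both lists, is shown for contrast, from chr7:15879956-15880205 on the minus strand, and holds 1.
Hoxa5: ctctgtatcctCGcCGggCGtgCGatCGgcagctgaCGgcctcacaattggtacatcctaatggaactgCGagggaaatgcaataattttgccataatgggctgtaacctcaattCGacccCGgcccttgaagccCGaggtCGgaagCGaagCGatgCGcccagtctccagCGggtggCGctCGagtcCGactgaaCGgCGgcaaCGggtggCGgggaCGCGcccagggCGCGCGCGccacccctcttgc
Sox1: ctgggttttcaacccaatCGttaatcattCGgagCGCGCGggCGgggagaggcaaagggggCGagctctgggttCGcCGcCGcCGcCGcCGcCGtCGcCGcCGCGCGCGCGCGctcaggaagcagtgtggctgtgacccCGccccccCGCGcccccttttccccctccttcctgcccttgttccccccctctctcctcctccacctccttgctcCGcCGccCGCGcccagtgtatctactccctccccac
Zic1: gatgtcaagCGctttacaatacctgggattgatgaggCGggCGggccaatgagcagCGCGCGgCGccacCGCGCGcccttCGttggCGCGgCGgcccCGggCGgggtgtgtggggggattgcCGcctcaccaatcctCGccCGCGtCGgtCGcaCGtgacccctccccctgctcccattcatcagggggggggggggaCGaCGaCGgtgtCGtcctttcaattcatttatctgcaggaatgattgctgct
Pax6: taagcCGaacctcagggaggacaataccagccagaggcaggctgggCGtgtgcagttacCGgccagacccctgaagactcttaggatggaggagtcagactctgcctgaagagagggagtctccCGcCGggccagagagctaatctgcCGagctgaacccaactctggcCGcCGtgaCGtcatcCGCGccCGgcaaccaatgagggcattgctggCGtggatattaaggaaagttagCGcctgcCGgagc
Crx: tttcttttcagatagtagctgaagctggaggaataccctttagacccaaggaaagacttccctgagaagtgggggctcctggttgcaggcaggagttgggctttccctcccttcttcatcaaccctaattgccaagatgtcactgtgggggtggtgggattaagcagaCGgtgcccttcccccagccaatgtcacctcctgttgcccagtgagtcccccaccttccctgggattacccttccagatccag

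Within 500 bp of the Hoxa5 and Sox1 starts no base lay under H3K27ac in either genotype, and 1 of the 4 ATAC lists had a peak there. The whole 500 bp on either side of the Zic1, Pax6 and Crx starts lay under H3K27ac in both genotypes, with a peak in all 4 ATAC lists. The domain starts of Zic1 and Pax6 therefore carried both marks, those of Hoxa5 and Sox1 carried H3K27me3 without H3K27ac, and that of Crx carried H3K27ac without H3K27me3. Over all 940 annotated protein-coding starts inside domains, the median was 13.5 CG per 250 upstream bases, against 9 for the 16792 starts in no joined region and 10 for all 20085 starts of the table. At least 10 CG were found upstream of 62.7% of domain starts and of 51.3% of all starts. Starts in joined regions from 1000 bp up to the minimum span lay between these, with a median of 12 CG and 60.6% with at least 10. The starts also differed in H3K27ac: a peak within 500 bp was listed in control at 40.3% of domain starts, 62.3% of starts in those shorter regions and 63.3% of starts in no region.

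Domains were mostly short, with a long tail. Spans ran from 10002 bp to 274793 bp, with a median of 14788 bp and quartiles of 11751 and 22168 bp. Of the 1677, 507 spanned at least 20000 bp, 62 at least 50000 bp and 16 at least 100000 bp. Chromosome 2 held the most, 180, and chromosome 16 the fewest, 33. Whether the peaks were called in a narrow or a broad mode is not stated, and the number of peaks, gaps and domains would depend on it. A domain was built from a median of 6 control peaks: 64 domains were a single peak, 730 held 2 to 5 peaks and 883 held more than 5, up to 27. Together they spanned 34.2 Mb and held 43.1% of all H3K27me3 bases of the control list on these chromosomes and 42.9% of those of the cKO list. The 5 shortest domains, at or nearest to Cblif, Zfr2, Kcnip3, Mmp25 and Khdc3, spanned 10002 to 10003 bp. The 5 regions just short of the minimum, at or nearest to Ccdc162, Paqr4, Sez6l, Pllp and Pfn3, spanned 9987 to 9998 bp, with control coverage of 6500 to 9086 bp, against 7676 to 10003 bp in the 5 shortest domains. As a check of the tissue, 11 of 12 neural retina markers had a control H3K27ac peak within 1 kb of a gene end, the exception being Pou4f2. The same held for 3 of 6 pigment epithelium, 2 of 6 vessel, 2 of 6 microglia, 2 of 6 lens, 1 of 4 astrocyte and 1 of 3 erythroid markers, and for 1 of 6 markers of tissues outside the eye. In the cKO list these counts were the same except for microglia, 0 of 6, and lens, 3 of 6. The part of these other cells in the domains was not tested. The files hold no read counts, so the depth of every library is unknown.

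**Figure D1:**
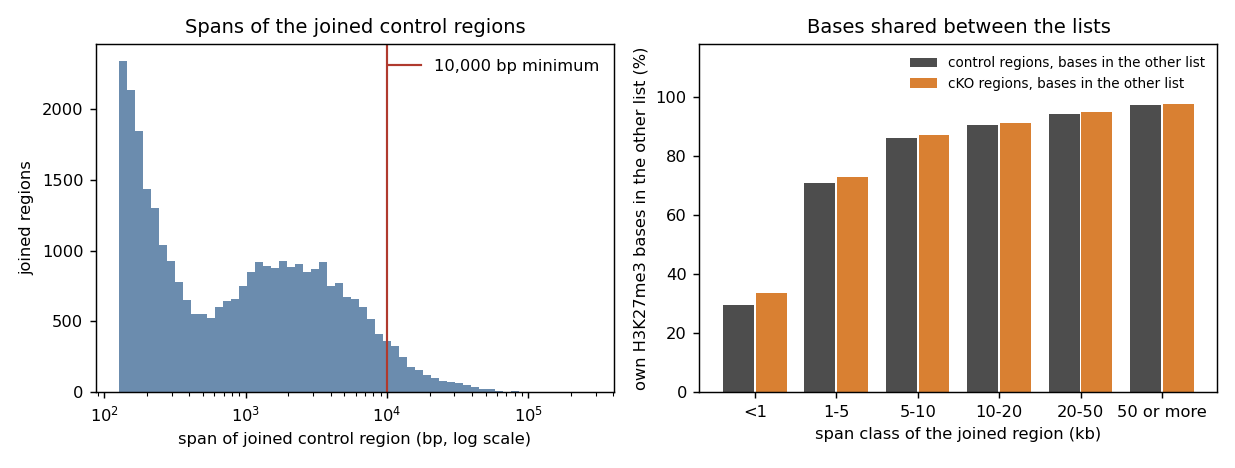
Left, number of joined control H3K27me3 regions by span in bp on a log axis, with the minimum span of 10000 bp as a red line. Right, percent of a region's H3K27me3 bases that the other genotype's list also covers, by span class in kb, for regions of the control (grey) and cKO (orange) list, 1 library each; the share rises from 29.4% under 1 kb to 97.3% at 50 kb or more in control.

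The 4 Hox clusters, which set positional identity along the body axis and in the limbs, were 4 of the 8 longest domains, and all 39 Hox genes had an end in them. The Hoxc domain, chr15:102877989-103152781, was the longest of all at 274793 bp, with 273260 bp covered in control and 272897 bp in cKO. The Hoxb domain, chr11:96143536-96391283, spanned 247748 bp and also held Ttll6, which encodes a tubulin-modifying enzyme, with 245381 bp covered in control and 246229 bp in cKO. The Hoxa domain, chr6:52142486-52334115, which also holds the homeobox gene Evx1, was a single control peak of 191630 bp, and cKO covered 191258 bp of it. The Hoxd domain with Evx2, chr2:74630606-74781851, spanned 151246 bp, with 147438 bp covered in control and 146849 bp in cKO. Genotypes thus differed by at most 848 bp in any Hox domain, and H3K27ac was nearly absent: control and cKO had 524 and 487 bp at Hoxc, 196 and 0 bp at Hoxa, and 0 bp in both at Hoxb and Hoxd. Both edges of the Hoxb domain lay far from acetylated chromatin, with the nearest control H3K27ac peak of at least 500 bp 67822 bp beyond the left edge and 255426 bp beyond the right edge. The right edge of the Hoxc domain differed: it lay 2723 bp from such a peak and 508 bp from an end of Smug1, a DNA repair glycosylase gene. All 8 edges of the Hox domains were within 1078 bp of their control place in the cKO list.

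Several of the other longest domains held further regulators of body plan and neural tube. The second longest, chr8:12255226-12514536, spanned 259311 bp around Sox1 and was broken into 27 control peaks and 5 cKO joined regions, with 250351 bp covered in control and 244367 bp in cKO. The domain of Pax2, a gene of the optic stalk and its astrocytes, spanned 160267 bp, and that of Msx1, a homeobox gene of limb and craniofacial tissue, 116893 bp. Pax3 of neural crest and muscle lay in 114760 bp, Nkx2-1 of ventral forebrain, thyroid and lung in 111974 bp, and Lmx1b of limb and midbrain in 101326 bp. A domain of 131216 bp held Cdk5r2, an activator of the neuronal kinase Cdk5, the lens crystallin gene Cryba2, and also Fev, Cfap65 and Ihh. Pax7, a paralogue of Pax3, followed with 90104 bp. Domains of 145972 bp at the H2-T genes and 84237 bp at H2-DMa lay in the major histocompatibility complex. The other domains among the 20 longest lay at or beside B020031M17Rik, Ap3b1, Htatip2, Kncn, Gas8 and BC107364. That of Kncn, 108037 bp, also held Dmbx1 and 6430628N08Rik. The left edge of the Htatip2 domain lay 16720 bp from an end of Dbx1, a listed homeobox regulator. How reads from near-identical gene copies were placed is not recorded in these sources, so the domains at H2-T, B020031M17Rik, Gas8 and BC107364 are uncertain.

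**Figure D2:**
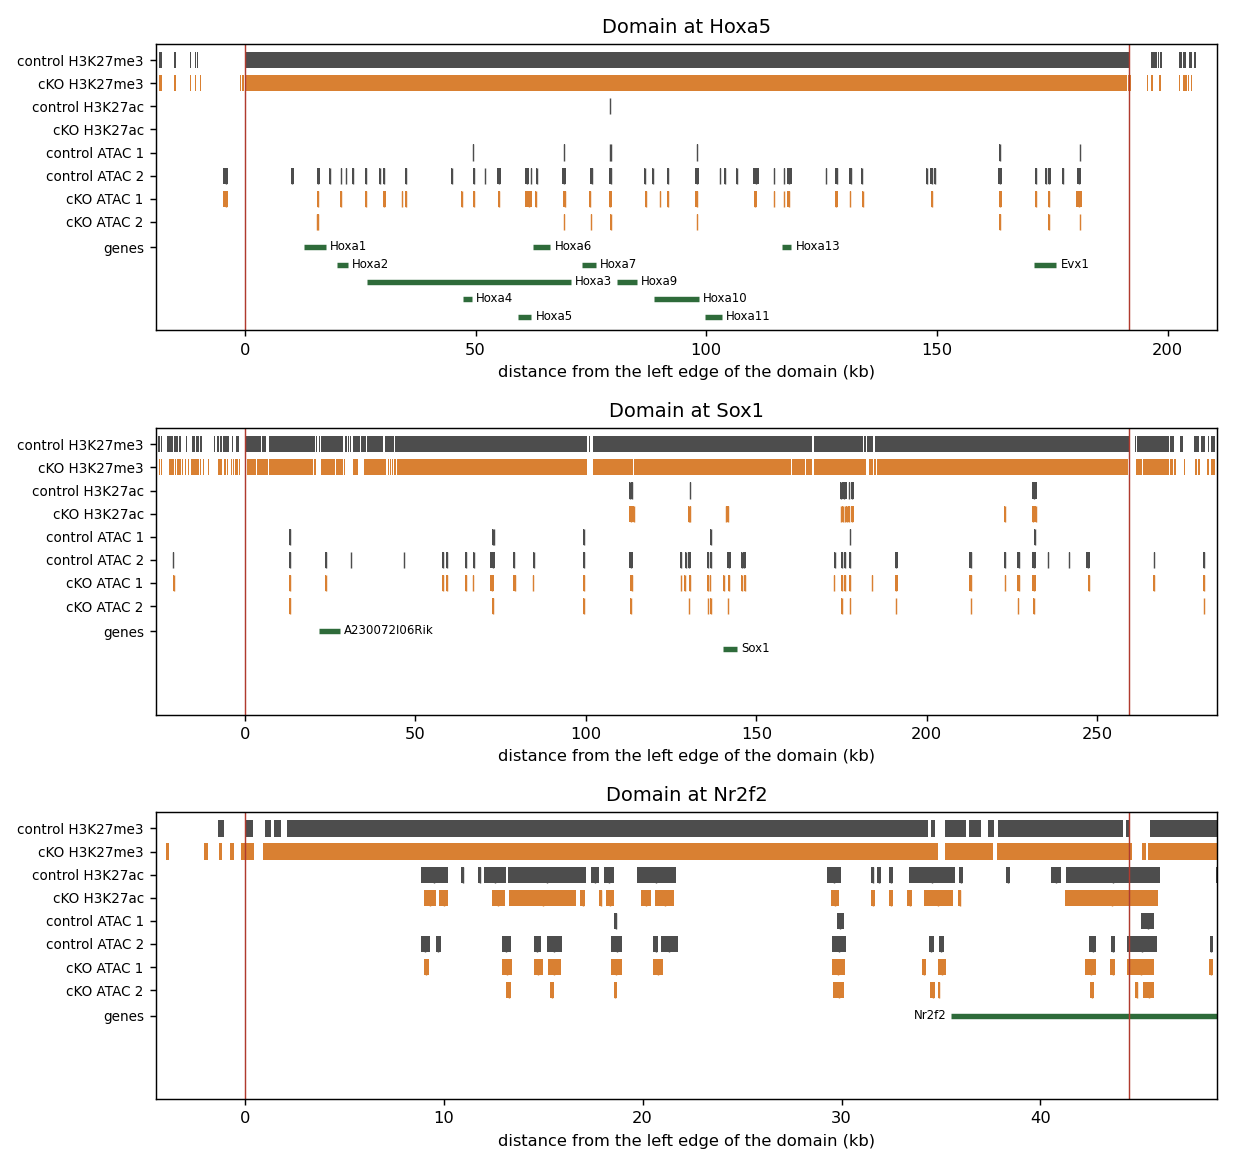
Peaks of every list along the domains at Hoxa5, Sox1 and Nr2f2, by distance in kb from the left edge of the domain; red lines mark the domain edges, green bars the protein-coding genes, grey bars control peaks and orange bars cKO peaks, with a minimum line width for narrow H3K27ac and ATAC peaks. The Hoxa domain is 1 control peak, the Sox1 domain is 27, and the Nr2f2 domain holds 17165 bp of control H3K27ac under and between its H3K27me3 peaks.

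Of 20665 autosomal protein-coding genes, 1216 had an annotated end inside a domain, a background of 5.88% for the gene lists that follow. The cKO domains, chosen by the same rule, held an end of 1187 genes, and 1092 genes were in both. With a minimum span of 20000 bp the number was 520, and 796 genes had an annotated start inside. Of the domains, 748 held 1 gene, 201 held more, up to 12, and 728 held no gene end, 210 of which lay inside a gene and 518 between genes. Long domains held genes more often, from 56.6% of all domains to 67.1% of those of at least 20000 bp, 85.5% at 50000 bp and 93.8% at 100000 bp. A longer stretch has more room for a gene end, and the part of length in this rise was not tested. In the 521 domains with a single protein-coding start, the mark reached a median of 7838 bp upstream and 7887 bp downstream of it. It reached further downstream in 275 of these, or 52.8%, close to an even split.

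Families of developmental transcription factors had high shares of their genes in domains. Besides all 39 Hox genes, 99 of 116 other homeobox regulators (85.3%) and all 5 autosomal GATA factors had an end in a domain. Among GATA genes, Gata4, of heart and endoderm, had 60757 of 62950 bp covered in control and 58843 bp in cKO, and Gata3, of T cells and inner ear, 36280 of 40608 bp in control and 35290 bp in cKO. T-box genes followed with 12 of 16, led by Tbx5 of heart, forelimb and dorsal retina in 83838 bp and Tbx15 of limb and skeleton in 60749 bp. Forkhead genes reached 21 of 41, with the longest span, 54830 bp, at Foxa2, an endoderm and floor plate factor, of which 49627 bp were covered in control and 48834 bp in cKO. Sox genes reached 7 of 18 (38.9%), with Sox1, Sox21, Sox14 and Sox17 in the longest domains. Proneural and neurogenic bHLH genes reached 14 of 27 (51.9%), among them Neurog1 in 51171 bp, Neurod2 in 41362 bp, Ptf1a in 36309 bp and Olig2 in 35551 bp. Every one of these shares lay above the 5.88% of all genes, which is a description with no test.

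Signalling genes split by family. Wnt ligands were in domains in 15 of 19 cases (78.9%), and neighbouring Wnt genes shared a domain: Wnt6 with Wnt10a in 56699 bp, Wnt3a with Wnt9a in 51492 bp and Wnt1 with Wnt10b in 47025 bp. BMP and GDF ligands reached 8 of 19 (42.1%), with Bmp4, a dorsal signal of the eye cup, in 22832 bp and Gdf6 in 22180 bp. FGF ligands reached 4 of 20, with Fgf17, Fgf5, Fgf8 and Fgf20. Of 7 cyclin-dependent kinase inhibitors, 4 had an end in a domain: Cdkn2a and Cdkn2b together in 64166 bp, Cdkn2c in 12519 bp and Cdkn1c in 12437 bp. Axon guidance genes reached 7 of 40 (17.5%), led by Ntn1, which encodes netrin, in 28772 bp. Polycomb subunits themselves reached 2 of 29 (6.90%), near the background: Bmi1 in 33545 bp and Pcgf1 in 18687 bp.

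Retinal cell type genes differed in how often they lay in a domain. Retinal ganglion genes reached 14 of 20 (70.0%), including the POU homeobox genes Pou4f2 in 28709 bp and Pou4f1 in 28565 bp, Isl1 in 29594 bp and Eomes in 33790 bp. Amacrine genes reached 14 of 21 (66.7%), including Prdm13 in 54878 bp, Tfap2a in 48737 bp, Tfap2b in 45704 bp, and Slc32a1, the transporter that loads GABA and glycine into vesicles, in 46372 bp. Horizontal genes reached 6 of 12, with Lhx1 in 40571 bp and Onecut1 in 33227 bp. Bipolar genes reached 8 of 20 (40.0%), with Lhx4 in 37666 bp, Otx2 in 33023 bp, Irx5 in 20670 bp, and Grm6, the glutamate receptor of ON bipolar cells, in 12690 bp. Genes of dorsal and ventral eye patterning reached 10 of 21, among them Tbx5, Tbx3, Vax1, Vax2 and Foxd1. Ptf1a, Tfap2b, Otx2 and Isl1 stand in more than 1 list, so the lists are not independent of each other.

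Photoreceptor, glial and progenitor genes lay in domains less often in these counts, with the difference not tested. Rod genes reached 2 of 22 (9.09%), near the background, and both were neighbours in 1 domain of 26149 bp: Guca1a and Guca1b, which encode activators of guanylate cyclase in phototransduction. The rod regulators Nrl and Nr2e3 had 0 bp of joined region at their ends. Cone genes reached 2 of 13 (15.4%), with Sall3 and Gngt2, and photoreceptor regulators 2 of 13, with Otx2 and Neurod1. Müller glia genes reached 3 of 30 (10.0%) and multipotent progenitor genes 5 of 24 (20.8%); Sox2 and Lhx2 counted in both lists, with Nfix in the first and Zic1, Nr2e1 and Pax6 in the second. Temporal identity genes reached 5 of 17 (29.4%): Nfix in 81287 bp, Lin28a in 13372 bp, Lin28b in 13367 bp, Ikzf3 in 12888 bp and Pou2f3 in 10125 bp. Casz1 had no joined region at its ends, with 1621 bp of H3K27me3 elsewhere in the gene, and Ikzf1, an early temporal factor, had an 8573 bp joined region, under the minimum span.

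The listed genes used in every cell had no end in a domain. Ribosomal protein genes were in domains in 0 of 73 cases, housekeeping genes in 0 of 18 and subunits of the NuRD remodelling complex in 0 of 14. Olfactory receptor genes, which serve the sense of smell, were in domains in 8 of 1100 cases (0.727%), below the background. Markers of other cell types varied. Pigment epithelium, with Dct, and microglia and macrophage, with Tyrobp, reached 1 of 15 each (6.67%), near the background. Vascular genes reached 3 of 19 (15.8%), with Sox17, Flt1 and Erg, liver and muscle genes 3 of 15, with Myod1, Acta1 and Ckm, astrocyte genes 3 of 9 (33.3%) and erythroid genes 1 of 9 (11.1%). Lens genes reached 4 of 15 (26.7%), among them Cryba2, Foxe3 and Bfsp2.

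**Figure D3:**
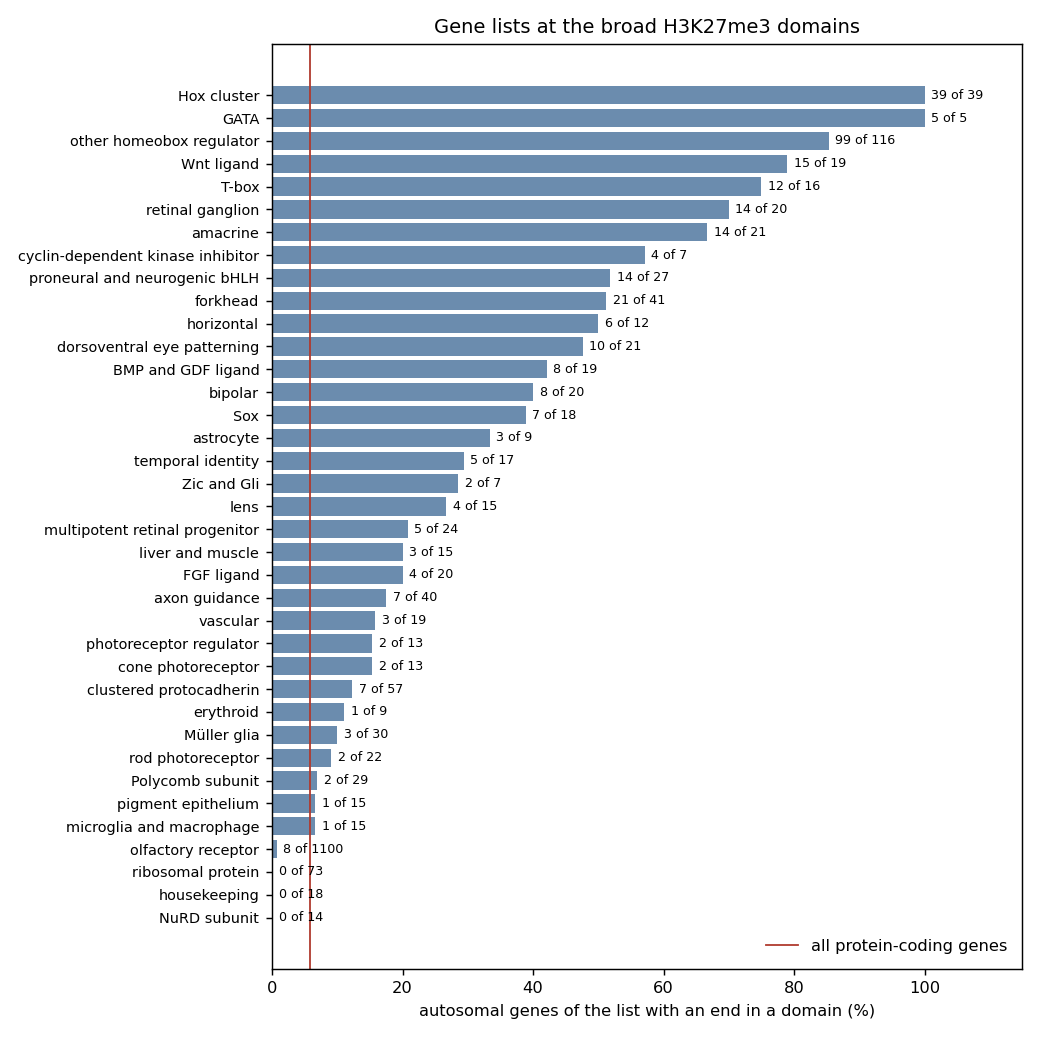
Percent of the autosomal genes of each list with an annotated end in a control domain; bars start at 0, the numbers beside them give genes in domains of all genes in the list, and the red line is the 5.88% of all protein-coding genes. Hox and GATA genes reach 100% and ribosomal protein, housekeeping and NuRD genes 0%.

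Mature miRNAs encoded in the domains are shown with the seed, bases 2 to 8 from the 5′ end, in capitals, as RefSeq gives them on GRCm38.p6. They were picked because they share a seed or because their domain bore much H3K27ac. MiR-10a and miR-10b share a seed, as do miR-196a and miR-196b, and all of these lie in Hox domains. MiR-132 and miR-212 share a seed and a domain. MiR-96 and miR-183 lie in 1 domain with different seeds, and miR-9 is encoded in 2 domains on different chromosomes.
miR-10a-5p: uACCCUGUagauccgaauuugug
miR-10b-5p: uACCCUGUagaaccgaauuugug
miR-196a-5p: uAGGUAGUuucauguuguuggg
miR-196b-5p: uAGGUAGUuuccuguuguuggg
miR-132-3p: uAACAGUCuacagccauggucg
miR-212-3p: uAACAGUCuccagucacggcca
miR-96-5p: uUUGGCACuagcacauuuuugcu
miR-183-5p: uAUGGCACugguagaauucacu
miR-9-5p: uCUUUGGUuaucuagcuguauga

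In all, 41 of 919 autosomal miRNA hairpins (4.46%) lay in 32 domains, close to the 5.88% for protein-coding genes. The hairpin of miR-10a lay in the Hoxb domain and that of miR-10b in the Hoxd domain. The 2 hairpins of miR-196a lay in the Hoxb and Hoxc domains, and that of miR-196b in the Hoxa domain. MiR-96 and miR-183, from a miRNA cluster known for its expression in photoreceptors and other sensory cells, lay in a domain of 18326 bp whose nearest protein-coding gene was Nrf1, 13834 bp away. That domain had 17855 bp of H3K27me3 and 12425 bp of H3K27ac in control, and 17530 and 12955 bp in cKO. The hairpin of the third member, Mir182, lay 1299 bp outside it. MiR-9, a neural miRNA, was encoded in a domain of 46740 bp that lay 7294 bp from Mef2d and in one of 27307 bp that lay 24124 bp from Polg. Its other hairpin, Mir9-2, lay 12878 bp from the nearest domain with 0 bp of H3K27me3. MiR-132 and miR-212 lay in a domain of 13805 bp at Smg6.

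H3K27ac covered 1103 kb of the domains in control and 999 kb in cKO, or 3.22% and 2.92% of their span. The change of -9.42% stood beside -6.86% for the whole H3K27ac lists, and was -2.75% once each list was divided by its own total. No H3K27ac was listed in either genotype in 882 domains, both lists had some in 677, control alone in 69 and cKO alone in 49. Of the H3K27ac bases inside domains, 94.9% were also under an H3K27me3 peak in control and 93.4% in cKO, where H3K27me3 covered 90.3% and 88.0% of all domain bases. At least 1000 bp were acetylated in 326 control domains and at least 5000 bp in 41. The domains named here were picked after their values were seen. The highest value was at Nr2f2, an orphan nuclear receptor gene, with 17165 bp in control and 13228 bp in cKO. Sox2, a progenitor and glial factor, had 15288 and 14753 bp, Tfap2a 14901 and 13625 bp, and Nfix, a nuclear factor I gene of late progenitors, 13168 and 11770 bp. Barhl2, a homeobox gene of amacrine and ganglion cells, had 12821 and 11711 bp, Zic1 11110 and 9179 bp, and Otx2, of photoreceptors and bipolar cells, 11020 and 11178 bp. At Pax6, 11083 of the 11270 bp of the domain were acetylated in control and 10475 bp lay under H3K27me3, so nearly all of this domain bore both marks.

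The lists differed in how many of their domains bore H3K27ac. Of 13 domains with amacrine genes, 11 held some control H3K27ac and 7 at least 5000 bp, among them Slc32a1 and Prdm13. Of 14 with ganglion genes, 13 held some, but 0 reached 5000 bp, and 6 reached 1000 bp. All 5 domains with progenitor genes held at least 1000 bp, and 4 at least 5000 bp. The Sox2 domain counts with both the amacrine and the progenitor genes. Of 94 domains with other homeobox regulators, 43 held some and 6 at least 5000 bp, and of 19 with forkhead genes 6 held some. Over all 1677 domains, 746 held some, 326 at least 1000 bp and 41 at least 5000 bp. Median spans were 34195 bp for the amacrine, 28513.5 bp for the ganglion and 17179 bp for the progenitor domains, against 14788 bp for all. The part of length in these counts was not tested. Gata4, Foxa2, Pou4f3 and Chat, which encodes the enzyme that makes acetylcholine, lay in domains with 0 bp in both genotypes.

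Covered H3K27me3 bases inside the domains were 30.9 Mb in control and 30.1 Mb in cKO, a change of -2.53%, against -1.94% for the whole lists on these chromosomes. There was 1 library per genotype, so no test was possible, and the control list that chose the domains favours control. Chosen instead by the same rule in the cKO list, 1621 domains had 1.71% more covered bases in cKO than in control, which turns the direction. In the control domains, 1254 had fewer covered bases in cKO, 416 more and 7 the same number, with a median change of -381 bp. A domain was counted as lower where control covered at least 5 bases for every 4 in cKO, and as higher in the reverse case. By this rule 32 domains (1.91%) were lower, against 61.9% of all joined control regions, and 3 (0.179%) were higher, against 1.78%. Nothing is read from these shares, since the control list chose the regions. By the same rule 32 of the cKO domains (1.97%) were lower in control. The count of 32 became 5 with a joining distance of 500 bp, 239 with 3000 bp and 1 with a minimum span of 20000 bp.

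How well a region was found again rose with its span in both directions. Of the control H3K27me3 bases, the cKO list also held 29.4% in regions under 1 kb, 70.8% from 1 to 5 kb, 86.0% from 5 to 10 kb, 90.5% from 10 to 20 kb, 94.2% from 20 to 50 kb and 97.3% at 50 kb or more. For cKO regions looked up in control these were 33.5%, 72.9%, 87.1%, 91.2%, 95.1% and 97.7%. A cKO domain overlapped 1444 of the 1677 control domains (86.1%), and 1446 of 1621 cKO domains (89.2%) overlapped a control domain. The 233 control domains without one were short, with a median span of 11184 bp and 161 of them under 12000 bp, and each still met some cKO H3K27me3. The longest of them, at AU021092, spanned 27383 bp, with 18596 bp covered in control and 15923 bp in cKO.

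The domains with the largest differences in bp, in 1 library each, are given as values. Among the losses, the Sox1 domain had a change of -5984 bp, which is small beside its 250351 bp, followed by the domain of Gbx1 and Agap3 with -4820 bp, that of Emx1, a cortical homeobox gene, with -3945 bp, and one 101605 bp from Kiz, its nearest gene, with -3865 bp. The domains of Irx4, Meiob and Gm829 and those with no gene end that lay 431 bp from Adar and 188727 bp from Gpat3 were also among the 10 largest losses, at -3851 to -3468 bp. The 32 domains counted as lower were mostly short and thinly covered in control: their median span was 11786 bp and median control coverage 71.1%, against 14919 bp and 90.6% for the other domains. Of the 3 domains counted as higher, that with Smad2 as its nearest gene lay 223120 bp from it (11921 bp in control, 16004 bp in cKO). The others lay in Foxp2, a forkhead gene (10821 and 14492 bp), and in Fto (5015 and 6537 bp). Gains of 1603 to 2187 bp were found in the domains of Myod1 and Nr2f2, in 1 inside Sorl1, and in 4 that held no gene end and lay 1237 bp from Haus5, 2867 bp from Abt1, 10396 bp from Myod1 and 87834 bp from Runx2. The Nr2f2 domain, named among these gains, had 43437 bp under H3K27me3 peaks in cKO and 41834 bp in control. Under H3K27ac peaks it had 13228 bp in cKO and 17165 bp in control, where the whole H3K27ac list changed by -6.86%. These are covered bases in 1 library each and give no peak height.

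Most edges of the domains were within 1 kb of the same place in both lists. Of 3354 edges, 37.0% shifted by at most 200 bp and 80.3% by at most 1000 bp, with a median absolute shift of 337.5 bp. The median shift was -3 bp (outward positive), with 1053 edges more than 200 bp outward and 1060 more than 200 bp inward. Its sign changed to 21 bp with a joining distance of 500 bp and 12 bp with a minimum span of 20000 bp. Long shifts were nearly all outward, 103 over 5000 bp against 1 inward, and such a shift counts all of a neighbouring region that the other list joins on. Edges of cKO domains looked up in control had a median shift of 30 bp, with 80.2% within 1000 bp and 109 against 0 over 5000 bp. Here more edges lay outward, 1162 more than 200 bp outward against 869 inward. Past 1000 bp there were 483 outward and 158 inward, against 416 and 245 for the control domains. In all, 1285 control domains were met by 1 cKO joined region, 322 by 2 and 70 by more.

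**Figure D4:**
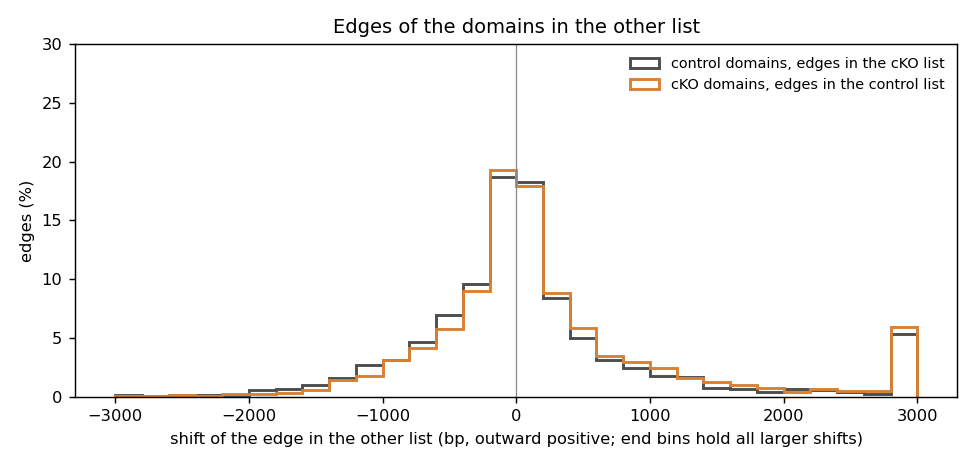
Shift of domain edges in the other genotype's list in bp, outward positive, in bins of 200 bp, as percent of all edges; grey, the 3354 edges of control domains in the cKO list; orange, the 3240 edges of cKO domains in the control list. The lines are highest around 0 in both, and the last bin on each side holds all larger shifts.

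Bridging was as common in either direction. In the cKO list 26 joined regions each connected neighbouring control domains, 52 in all, and in the control list 26 connected 54 cKO domains. The longest cKO bridge joined the domains of En2, a homeobox gene of midbrain and cerebellum, and Cnpy1 across 7723 bp into 111709 bp. Another joined 2 neighbouring domains at Myod1, the muscle master regulator, into 59103 bp. The most extended edges followed from such joins. The domain 6529 bp from Rhou gained 100572 bp by joining that beside Gas8. The domain 28037 bp from Wdr41 gained 81843 bp by joining that of Otp, and that of Cnpy1 gained 76403 bp. A domain 60040 bp from Calcoco1, its nearest gene, and that of Cd3e completed the 5 most extended, at 59105 and 48742 bp. The most retracted edges were shorter, at -5103 bp at Rpp25 and -2790 to -3538 bp at or nearest to Oog4, Sertm1, Tfec and Ttc34. In the opposite direction, the Sox1 domain, 1 domain in control, was 3 domains in cKO, and the Ap3b1 and Msx1 domains were also divided.

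H3K27ac and open chromatin were both denser just outside the domain edges than just inside them. In control, H3K27ac covered 6.29% of bases from 1 to 2 kb outside the edges, against 2.24% in the first kilobase inside and 2.91% from 19 to 20 kb outside. The cKO library had 6.00%, 2.06% and 2.79% at these places. From 4 to 5 kb inside, H3K27ac covered 4.20% in control and 3.82% in cKO, so the low values were those next to the edge. At least 500 bp of a control H3K27ac peak lay within the 5 kb beyond 460 of 3354 edges (13.7%). The same held for a cKO peak beyond 434 edges (12.9%). ATAC peaks covered 2.65%, 8.13%, 7.34% and 3.93% of the first kilobase outside in control libraries 1 and 2 and cKO libraries 1 and 2, against 0.546%, 3.71%, 3.11% and 1.04% of the first kilobase inside. From 4 to 5 kb inside they were 1.36%, 10.6%, 9.33% and 2.74%. All 4 libraries were therefore lower in the first kilobase inside than on either side of it. Control H3K27me3 is 0% in the first kilobase outside because of the joining distance, and the cKO list covered 12.8% of it. Among the longest domains, the right edge of the Htatip2 domain lay 412 bp from an H3K27ac peak and 395 bp from an end of Prmt3, an arginine methyltransferase gene, and that of H2-T 3259 bp from such a peak and 1729 bp from an end of Rpp21.

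**Figure D5:**
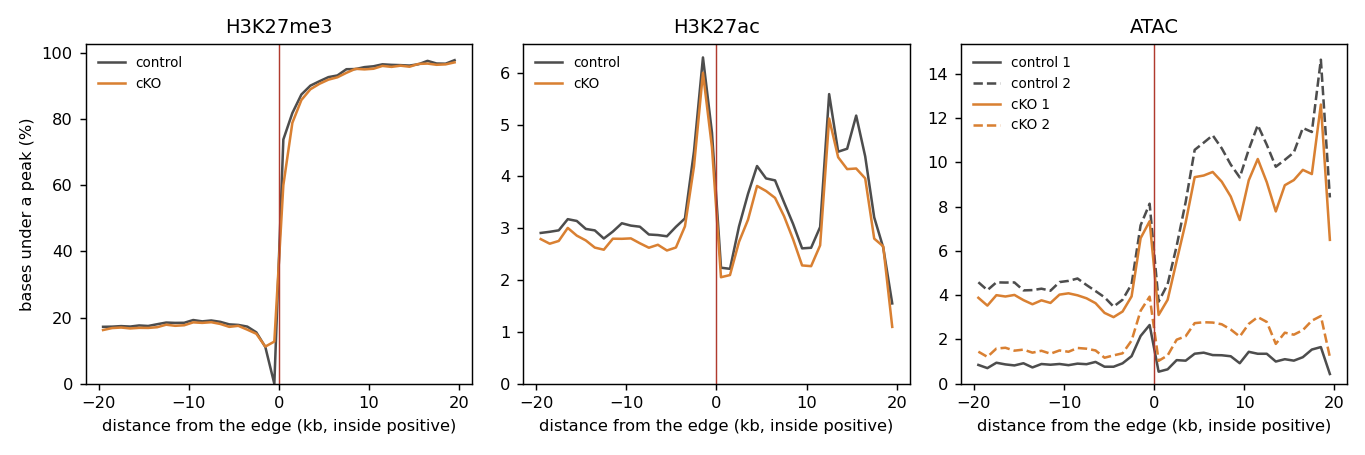
Percent of bases under a peak in bins of 1 kb by distance from the domain edge in kb, inside positive, over 3354 edges; inner bins beyond 5 kb hold fewer edges, as short domains end there. H3K27ac peaks at 6.29% (control) and 6.00% (cKO) from 1 to 2 kb outside and falls to 2.24% and 2.06% just inside, and each of the 4 ATAC lists falls across the edge.

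Gaps between the peaks of a domain were short. The 9238 gaps in 1613 domains had a median of 274 bp and held 3315 kb, or 9.70% of the span. The cKO list covered 40.6% of gap bases, filled 2659 gaps (28.8%) throughout and covered no base of 2048 (22.2%). Shorter gaps were filled more often: 44.2% of those under 300 bp, 14.9% from 300 bp to under 600 bp and 2.67% of longer ones. The exchange went in both directions, since 1590 kb that were covered in control (5.15% of covered bases) lay in a cKO gap, and for cKO domains the control list covered 43.3% of gap bases and filled 2880 of 8960 gaps. The longest control gaps filled in cKO were 985 bp in the Irx1 domain, 934 bp with Zc3h12a as nearest gene, 904 bp with Thbs2 as nearest gene, 890 bp near Slc17a9 and 874 bp in Foxp2. The gap assigned to Zc3h12a lay 132903 bp from it and that assigned to Thbs2 39375 bp from it. The longest cKO gaps in sequence that control covered were 1343 bp near Spaca7, 1333 bp in the Gbx1 and Agap3 domain, 1275 bp in Lsamp and 1197 bp near Foxd2. None of these 9 gaps held H3K27ac in either genotype. Of the 940 protein-coding starts in domains, 35 (3.72%) fell in a gap, against the 9.70% of the span that gaps make up.

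Gaps with open chromatin in all 4 lists were filled less often. Of the gaps, 94.7% had no ATAC peak midpoint in any list. The 154 gaps with one in all 4 lists were filled throughout in cKO in 10 cases (6.49%), with 18.4% of their bases covered. Gaps without any were filled in 29.4% of cases, with 41.6% of bases covered. The first kind was longer, with a median of 546.5 against 270 bp, and longer gaps were filled less, so the part of length in this difference was not tested. The 213 gaps touching control H3K27ac were filled in 22.5% of cases, against 28.9% of the others.

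ATAC peaks inside the domains made up a similar share of every list. The share with its midpoint in a domain was 3.99% of 39636 peaks in control library 1, 4.52% of 108569 in control library 2, 4.66% of 91931 in cKO library 1 and 4.48% of 59574 in cKO library 2. Counting error alone gave 95% intervals (Clopper-Pearson, exact) of 3.80% to 4.19%, 4.40% to 4.64%, 4.53% to 4.80% and 4.32% to 4.65% in that order. The groups overlapped, as cKO library 2 lay below control library 2. The means were 4.25% ± 0.374 (SD, n = 2) in control and 4.57% ± 0.126 (SD, n = 2) in cKO, a difference of 0.320 percentage points (two-sided exact permutation test, p = 0.667, where 2 against 2 libraries cannot go below 0.333). The difference was 0.0550 without control library 1, 0.584 without control library 2 and 0.0505 when only the widest peaks were kept to give lists of equal length. It was 0.648 with peaks of at least 300 bp, so its size changed with the control library left out and with the peaks kept. The lists differ in length by more than the groups do, and the labels do not state why.

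Open sites were denser in the domains than around them. Peaks per Mb of domain were 46.2, 143, 125 and 78.1 in control libraries 1 and 2 and cKO libraries 1 and 2, against 35.6, 77.2, 66.8 and 49.0 per Mb of the 20 kb flanks. The ratio was above 1 in all 4 libraries, from 1.30 in the shortest list, control library 1, to 1.88 in cKO library 1. Inside the domains the lists disagreed on where: in control library 1, 71.5 peaks per Mb lay in gaps and 43.5 per Mb in covered sequence, and in cKO library 2, 95.9 and 76.2. In the longer lists the order was turned, with 112 in gaps and 147 in covered sequence in control library 2, and 106 and 127 in cKO library 1. A peak was found in 882, 1485, 1446 and 1182 domains, and 181 domains (10.8%) had none in any list. The longest of these were near Zfp846, 34666 bp, near Nom1, 30269 bp, and at the brachyury gene T and T2, 29032 bp.

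Merged over the lists, 5138 of 116384 open regions lay in domains, and 1336 of these (26.0%) were called in all 4 lists, against 28.2% of all open regions. Of these 1336, 44.5% touched control H3K27ac, against 70.9% of the 31516 such regions elsewhere, and 13.8% lay in a gap. The Hoxa domain had 7 and 44 ATAC peaks in control libraries 1 and 2 and 30 and 9 in cKO libraries 1 and 2, and the Sox1 domain 7, 33, 31 and 14. Both thus ranked by list length and not by genotype. Pax6 had 4, 4, 4 and 3 in its 11270 bp, and Sox2 7, 9, 8 and 9. Regions called in both cKO lists and no control list numbered 7 in domains (0.136% of 5138), against 0.273% of all open regions, and regions called in both control lists and no cKO list numbered 2 (0.0389%), against 0.125%. The 7 lay 291 bp from Wnt8b, 525 bp from Fezf1, 13682 bp from Prickle1, 87105 bp from Kctd1 and 111086 bp from Kiz, and in the domains of Foxl2 and Kcnh3. The 2 lay 1992 bp from Fbxo2 and 42724 bp from Gas8. With shares below the background in both directions and counts this low, no open site particular to a genotype is read from the domains.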

How the data were processed

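The values are peak lists in BED form from ChIP-seq and ATAC-seq of mouse retina: 8 lists from 10 samples, the other 2 being input samples not analysed here. Bowtie2, MACS2, deepTools and the mm10 build are named, with no versions, per the submitters' processing notes. The score column of every deposited list is 0, so the authors' files give no peak height, and a peak's only values are its start and end. Read depth is unknown, and the lists differ in length.

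Domains were made as the report states, on chromosomes 1 to 19. Covered bases, edge shifts, gaps and peak midpoints were computed with Python 3.11.15, numpy 2.4.6 and pandas 2.3.3, after the code was tested on simulated intervals. The ChIP-seq comparisons have 1 library per group and no test. The ATAC-seq share used a two-sided exact permutation test (scipy 1.17.1); nothing in the labels says which of the 2 libraries per group share an animal or a day, so its p measures the spread between these samples only. Genes, upstream sequences and miRNAs are RefSeq's on GRCm38.p6; 16457 protein-coding genes had an upstream sequence. A gene was in a domain if either annotated end was. Named domains were the 20 longest, the 10 largest gains and losses, the most shifted edges, the shortest, those with most or no ATAC peaks, those holding a miRNA and listed genes; the 10 with most H3K27ac were added after their values were seen. The members and the 37 gene lists were chosen with earlier results of these data known. Alternatives changed the joining distance, minimum span, peak width, list that chose the domains, and ATAC libraries used. Some named items are not reported here.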

Additional observations from a re-analysis of the deposited data

Results flagged for a closer look

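Chromosome X lies outside the rule for the domains and held signal of the same kind. By the same joining distance and minimum span, the control list had 442 domains there among 5341 joined regions (8.28%), and the cKO list 419. Their median span was 20184 bp and the longest spanned 282202 bp. Over the whole of chromosome X, H3K27me3 covered 15.9 Mb in control and 14.4 Mb in cKO. Of the span of the control X domains, 75.3% was covered in control and 70.0% in cKO. The sex of the animals is not used here, and its part in these values was not tested.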

How the results depend on the processing

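The number of domains was 2592 with a joining distance of 3000 bp and 507 with a minimum span of 20000 bp. The change in covered H3K27me3 bases was -2.15% with joining at 500 bp, -3.31% at 3000 bp, -1.74% with 20000 bp spans, -2.69% with peaks of at least 200 bp and -0.601% after division by the list total. It was -1.23% with 5000 bp added on either side and -0.675% for domains of both lists merged (both chosen after seeing the data), and 1.71% for domains chosen in cKO. The count of 32 lower domains became 5 and 239 with joining at 500 and 3000 bp, and 1 both with 20000 bp spans and, in cKO, for domains chosen in the cKO list. The median edge shift was 21 and -36 bp with joining at 500 and 3000 bp, 12 bp with 20000 bp spans and -30 bp for cKO domains, signed as cKO against control. Covered gap bases were 52.6% and 24.2% with joining at 500 and 3000 bp, 33.7% in gaps of at least 300 bp and 43.3% in cKO domains. The H3K27ac change was -2.75% after division by the list total, -10.9% with 20000 bp spans and -9.30% in cKO domains. Genes numbered 520 with 20000 bp spans and 796 by annotated start, an alternative chosen after seeing the data. The causes were not tested.

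The ATAC difference ranged from 0.0550 to 0.584 percentage points when 1 library was left out. With a replicate block it was 0.320 (exact permutation p = 1.0), with differences of 0.673 and -0.0344 within the numbers. Deviations of same-numbered libraries correlated at -0.602 over 1677 domains, and the crossed pairing, added after seeing the data, gave p = 0.5 by the exact permutation test. None of these fits made a call. Without read depth, peaks too weak to be listed cannot be told from absent ones.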

Other observations

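Around protein-coding starts in H3K27me3 regions, the ATAC lists differed in how many starts had a peak. A peak within 500 bp was listed at 28.6% and 66.4% of starts in domains in control libraries 1 and 2, and at 61.2% and 42.4% in cKO libraries 1 and 2. At starts in no H3K27me3 region the 4 values were close, 56.8%, 59.9%, 59.3% and 58.7%. Starts in joined regions from 1000 bp up to the minimum span also spread, with 39.5%, 70.3%, 69.2% and 53.9%, so the spread was not particular to the domains. In each of these classes the values ranked by the length of the list. Open regions listed in control library 2 and cKO library 1 alone made up 31.4% of those in domains and 28.0% of all.

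The domains with most open regions in all 4 lists were not those of developmental regulators. The domain beside Gas8 held 14 such regions, and one 297034 bp from Alkbh8, its nearest gene, held 10. Gm40369, Gm40363 and Fcgr3 completed the 5 highest. These loci are uncertain because the placement of reads from repeated sequence is not recorded.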
